A study of Homo sapiens with 6 samples.

Results

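Among the 30001 regions that served as an anchor of a chromatin loop in any of 6 HiChIP libraries, 6516 (21.7%) carried an H3K27ac anchor and an ARID1A anchor at day 3 of SMARCB1 re-expression and no H3K27ac anchor at day 0. These day-3-only anchors with ARID1A were found by merging the distinct anchors of all libraries wherever they overlapped by 1 bp or more and keeping the merged regions that met this rule. They made up 40.3% of the 16175 regions with an H3K27ac anchor at day 3 and 25.3% of the 25738 regions with an ARID1A anchor. Of the 9185 regions whose H3K27ac anchor was listed at day 3 and not at day 0, 70.9% had ARID1A, and of the 6990 regions with an H3K27ac anchor at both times 82.9% had it. The members were chosen by these anchor calls, so neither their presence at day 3 nor their absence at day 0 is a finding here.

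The cells were G401, an established human cell line from a rhabdoid tumour, a childhood cancer marked by loss of SMARCB1. Per the labels, all cells came from a stable G401 line carrying an inducible SMARCB1 construct and grown in serum free of tetracycline. The day 0 group, H3K27ac in cells of genotype SMARCB1 -/- without doxycycline, had 2 libraries. The day 3 groups, H3K27ac and ARID1A in cells labelled SMARCB1 +/+ after doxycycline at 1 μg/ml, had 2 libraries each. Between day 0 and day 3 the effects of SMARCB1, of doxycycline and of the days in culture cannot be told apart. ARID1A at day 0 was not analysed here, so the data do not show whether ARID1A was at these regions before re-expression. The labels do not say whether the 2 libraries of a group are separate cultures, so the spread behind every p-value may be technical. Loop lists hold no expression values, and the cell line was not checked against marker genes.

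SMARCB1 is a core subunit of SWI/SNF, a complex that uses ATP to slide or evict nucleosomes and so opens DNA to transcription factors. ARID1A is the large subunit that defines the canonical BAF form of the complex, which works mainly at enhancers, and AP-1 factors, named in the study's title, are known to bring it to such sites. H3K27ac, acetylation of histone H3 at a lysine of its tail, marks enhancers and promoters in use. HiChIP cuts and rejoins chromatin in the nucleus, then pulls down the fragments that carry a chosen mark or protein, so each paired-end tag (PET) records a contact between distant DNA segments at least one of which was pulled down.

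The rule left out every region with a day 0 anchor, and loops are listed only between anchors, so the count of 0 PETs at day 0 at all 6516 regions follows from anchor calling and gives no fold. The libraries held 253502 and 301703 PETs at day 0, 929128 and 982141 for H3K27ac at day 3, and 435210 and 467487 for ARID1A. The greater depth at day 3 moved with the calls: with the day 3 H3K27ac libraries thinned to 253502 PETs, 53.6% and 52.6% of the day-3-only anchors with ARID1A still held 10 PETs or more. In the day 0 libraries at their full depth, 78.9% and 75.6% of the day 0 anchors held as many. What part depth had in the absence of a day 0 anchor was not tested, since the anchors were called before deposit.

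A typical day-3-only anchor with ARID1A held a median of 38 and 39 H3K27ac PETs in the 2 day 3 libraries, and 22 and 24 ARID1A PETs. The highest member reached 1074 and 1064 H3K27ac PETs, and 4543 members had at least 10 PETs in each of the 4 day 3 libraries. Per anchor, the mean was 56.7 and 59.4 H3K27ac PETs, above the 42.7 and 44.4 of the 2669 day-3-only anchors without ARID1A. It was below the 192 and 204 of the 5797 regions with H3K27ac at both times and ARID1A, called lasting anchors here. For ARID1A the members held 33.6 and 36.0 PETs per anchor, the lasting anchors 58.1 and 62.8, and the 13158 ARID1A anchors with no H3K27ac at either time 20.4 and 21.8. The members thus sat between the other classes with both antibodies, and the 2 libraries of a group lay far closer to each other than to the other classes. These levels are descriptions, since the classes were cut from the same calls.

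At the edge of the rule the values are small. Just inside it lay a region at 1q41 (hg19, chromosome 1, 216246059 to 216251637) with 1 and 0 H3K27ac PETs and 1 and 2 ARID1A PETs. Just outside lay one at 6q22.33 (chromosome 6, 130263116 to 130279699) with 42 and 40 H3K27ac PETs at day 3, 87 and 99 ARID1A PETs, and a day 0 anchor of 13316 bp that took part in no loop to another merged region. Among the members, 52 had a mean below 2 H3K27ac PETs.

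The calls of the 2 antibodies covered much of the same DNA. H3K27ac anchors covered 40.2 Mb of the members and ARID1A anchors 52.9 Mb, with 33.4 Mb in common, which is 83.1% of the H3K27ac stretch and 63.1% of the ARID1A stretch. In the lasting anchors the same shares were 80.3% and 75.1%. At 6321 members (97.0%) the overlap reached 50% of the narrower call. The median called width was 5244.5 bp for H3K27ac and 6436.5 bp for ARID1A, and ARID1A was called wider at 4125 members (63.3%), against 50.5% of the lasting anchors. It was at least 2 times wider at 1066 members, while H3K27ac was at least 2 times wider at 194. The widest member with either antibody lay at 3q28 (chromosome 3, 191042880 to 191129340), called over 59262 bp for H3K27ac and 77281 bp for ARID1A. Over all its loops it held 144 and 178 H3K27ac PETs and 253 and 267 ARID1A PETs. Counting only loops between anchors called with both antibodies, it held 143 and 175 H3K27ac PETs and 41 and 42 ARID1A PETs.

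Most members lay near, but not beside, H3K27ac anchors that were present from the start. The median distance to the nearest day 0 anchor was 48.8 kb, with 18.3% of members within 10 kb and 31.6% farther than 100 kb. The corresponding median was 38.8 kb for day-3-only anchors without ARID1A and 60.2 kb for ARID1A anchors without H3K27ac. Levels were lower farther from day 0 anchors. The median over the 1195 members within 10 kb of a day 0 anchor was 81.6 and 80.4 H3K27ac CPM and 83.4 and 79.8 ARID1A CPM. Over the 462 members beyond 500 kb it was 11.5 and 10.9 H3K27ac CPM and 14.3 and 13.3 ARID1A CPM. CPM are the PETs of an anchor scaled to a common total by its library's PETs in loops between merged regions.

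Members were also close to each other, at a median of 44.8 kb from the nearest other member. Counting only regions with H3K27ac at some time, 4478 members (68.7%) lay directly next to another member along the chromosome, in runs of 2 or more. Members made up 40.3% of the day 3 H3K27ac anchors, so many lie in runs by their number alone. Whether runs were more frequent than in a random order was not tested. Runs of 5 or more numbered 165 and held 997 members. The longest runs had 13 members, one of them over 3085 kb across 4q31.23 and 4q31.3 (chromosome 4, 148782620 to 151867960), the other over 766 kb in 8q24.21. The first run held 217 and 244 H3K27ac PETs and 496 and 528 ARID1A PETs in all, so it was sparse in H3K27ac and richer in ARID1A. The second held 1850 and 1898 H3K27ac PETs and 740 and 911 ARID1A PETs.

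By chromosome, the members were most numerous on chromosome 1 (652), chromosome 2 (531), chromosome 3 (426) and chromosome 6 (396). As a share of the day 3 H3K27ac anchors they ranged, leaving out chromosome Y, from 33.9% on chromosome 19, which is dense in genes, to 47.1% on chromosome 18, which is poor in them. The bands with the most members were 19p13.3 with 45, 1q32.1 with 44, 2p21 with 43, 8q24.21 with 42 and 17q11.2 with 41. Next came 3p21.31 with 39, 11p15.4 with 38, 12q24.31 with 37, and 6q21 and 11p11.2 with 36 each. Among these 10 bands, 8q24.21 had the most members per length, 10.0 per Mb, and members made up 67.7% of its 62 day 3 H3K27ac anchors. In 19p13.3 they made up 36.3% of 124. Regions are given by hg19 position and band, and no genes were assigned to them.

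The strongest H3K27ac members were single regions of high contact. At 17q21.2 (chromosome 17, 40484969 to 40522326) a region held 1074 and 1064 H3K27ac PETs, 1195 ± 55.0 CPM (SD, n = 2), and 243 and 268 ARID1A PETs, 587 ± 10.9 CPM. Beside it, at 40473380 to 40484333, another held 604 and 660 H3K27ac PETs and 129 and 148 ARID1A PETs. The strongest loop between 2 members for H3K27ac joined this pair, with 150 and 154 PETs. They lay 3.53 and 2.05 kb from a day 0 anchor. The others of the 10 with the highest H3K27ac CPM lay at 19p13.3, 6p21.2, 17p13.1, 16q24.1, 11p15.4, 2q32.1, 12q24.21 and 17q22, with a range of 558 to 1195 CPM over the 10 and ARID1A levels from 68.4 to 587 CPM.

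The strongest ARID1A members were other regions: the 2 lists of 10 share no region. The highest lay at 3p14.3 (chromosome 3, 56868578 to 56911502), with 352 and 369 ARID1A PETs, 828 ± 14.4 CPM, and 428 and 457 H3K27ac PETs, 494 ± 3.40 CPM. It lay 117 kb from the nearest day 0 anchor. The next was at 3q25.1 (chromosome 3, 150042439 to 150082050), with 339 and 332 ARID1A PETs and 104 and 115 H3K27ac PETs. All 10 were called wider for ARID1A than for H3K27ac, over 30159 to 47591 bp against 5537 to 39641 bp.

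To ask where the 2 antibodies differed, PETs were compared between ARID1A and H3K27ac at day 3 over anchors called with both, counting loops between such anchors only. Of the 6516 members 5538 passed the filter of 10 PETs in at least 2 libraries. Among them ARID1A was higher at 2369 (42.8%) and lower at 1020 (18.4%) at an adjusted p under 0.05 (edgeR's quasi-likelihood test with Benjamini-Hochberg adjustment). Over all 11052 anchors tested, 31.5% were higher and 32.5% lower, and 64.0% were called in either direction. The median log2 fold of ARID1A over H3K27ac was 0.41 at the members, -0.44 at the lasting anchors and -0.05 over all. The direction is relative to the typical anchor called with both antibodies. Scaled by library totals, 1356 members (24.5%) were higher and 2004 (36.2%) lower, beside 16.0% and 54.0% of all anchors (70.0% in either direction), with a member median of -0.24, because that scaling moves the median of all anchors by -0.65. All 1020 lower calls held under it, and 1356 of the 2369 higher calls did. Since the absence of H3K27ac at day 0 entered the choice of members, their contrast with the lasting anchors is a description.

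**Figure D1:**
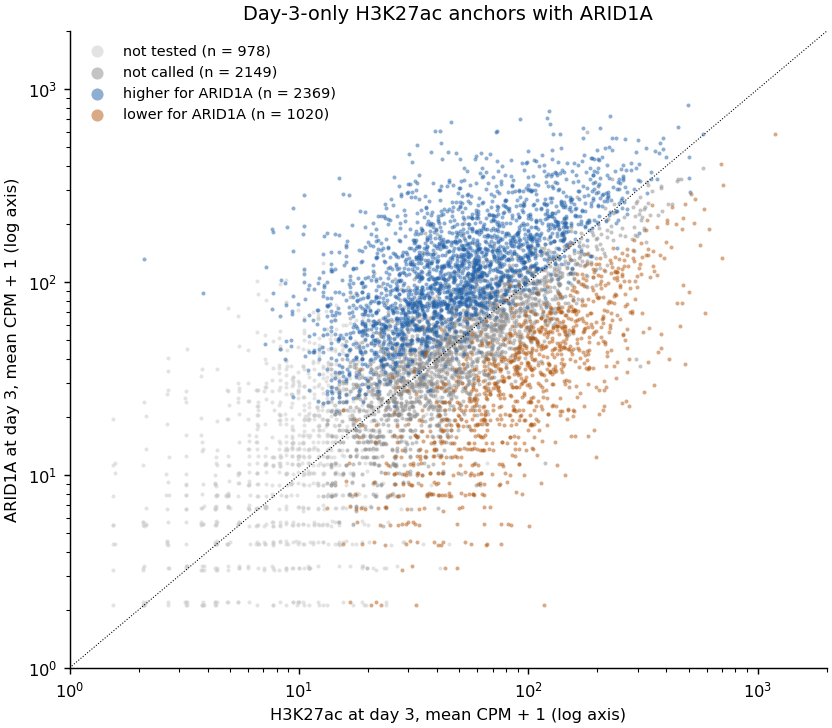
Each point is one of the 6516 day-3-only anchors with ARID1A, placed by its mean CPM + 1 over the 2 H3K27ac libraries (horizontal log axis) and the 2 ARID1A libraries at day 3 (vertical log axis). Blue points (2369) were higher for ARID1A, orange points (1020) lower, dark grey points (2149) were not called and light grey points (978) were not tested. The dotted line marks equal CPM. The CPM plotted count all loops of an anchor. The calls count only loops between anchors called with both antibodies and are relative to the typical such anchor. A point's side of the line can therefore differ from its call.

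In the plot of member CPM the levels with the 2 antibodies spread widely around the line of equal values, and the members that were not tested sit at the low end with both. The filter itself passed 1231 members through their H3K27ac PETs alone, of which 486 were lower for ARID1A, and 37 through their ARID1A PETs alone, all 37 of them higher. The counts above are therefore counts of tested members, not of all. In 3547 members every one of the 4 libraries reached 10 PETs within the tested loops.

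Called width moved with the direction of the difference. Members higher for ARID1A had a median called width of 5315 bp for H3K27ac and 10051 bp for ARID1A, and 90.8% were wider for ARID1A. Members lower for ARID1A had 5877.5 and 4652.5 bp, and 25.7% were wider for ARID1A. Spearman's rho between the log2 fold and the log2 ratio of widths was 0.674 over the 5538 members, a description across regions of the same libraries. With called width as an offset, so that PETs are compared per called base, 1469 members (26.5%) were higher and 1029 (18.6%) lower, beside 19.0% and 31.8% of all anchors (50.8% in either direction). Of the 2369 higher calls 1310 held and 83 became lower, and of the 1020 lower calls 668 held and 3 became higher. Among anchors whose wider call exceeded the narrower by at most 25%, 652 of 1938 members were higher and 278 lower, beside 25.8% higher and 26.0% lower over the 4274 anchors of that kind (51.8% in either direction).

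Members with a call in either direction lay closer to day 0 anchors than those without one. The median distance was 26.7 kb for those lower for ARID1A, 38.1 kb for those higher and 49.3 kb for those not called. The share called higher was 44.9% of the members tested within 10 kb and 36.7% of those tested beyond 500 kb. The share called lower was 23.6% and 11.2%. Tested were 1158 of 1195 members within 10 kb and 188 of 462 beyond 500 kb. The median log2 fold was 0.35 within 10 kb, 0.41 at 10 to 100 kb, 0.46 at 100 to 500 kb and 0.27 beyond. Shares over all anchors by distance were not computed. Level moved with the calls too: the lower calls had medians of 83 and 89 H3K27ac PETs, the higher calls 41 and 43, and those not called 39 and 41. For ARID1A the medians were 14 and 14, 48 and 51, and 18 and 20 PETs in the same order. On chromosome 4, 63.7% of 226 tested members were higher for ARID1A and 7.52% lower, while on chromosome 19, 16.0% of 231 were higher and 52.4% lower. The same order held for all anchors called with both antibodies, of which 47.8% were higher on chromosome 4 and 10.0% on chromosome 19. It is thus no property of the members alone. On chromosome X the members held 7.43 and 8.21 ARID1A PETs each against 28.8 and 32.1 H3K27ac PETs.

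The members with the smallest p in each direction, among those whose libraries did not overlap, had levels that differed several-fold. At 17q21.33 (chromosome 17, 49074824 to 49115164) the tested loops held 45 and 33 H3K27ac PETs and 234 and 268 ARID1A PETs, or 29.6 ± 7.61 and 629 ± 26.2 CPM of the tested set. The log2 fold was 4.37 ± 0.14 (SE; adjusted p = 5.38e-206), 3.72 by library totals and 1.51 per called base, with H3K27ac called over 5537 bp and ARID1A over 40340 bp. A neighbour in the same band (49117371 to 49140683) had 52 and 51 H3K27ac PETs and 173 and 187 ARID1A PETs, a log2 fold of 3.50 ± 0.15. This pair was itself joined by a loop of 70 and 69 ARID1A PETs and 1 and 1 H3K27ac PETs.

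The other 6 members of this list lay at 6q25.2, 4q22.1, 3q25.1, 2p22.1, 1p31.2 and 4q32.3. At 4q22.1 (chromosome 4, 90635813 to 90664308) the loops held 39 and 29 H3K27ac PETs and 180 and 189 ARID1A PETs. At 2p22.1 (chromosome 2, 39505198 to 39538457) they held 38 and 34 H3K27ac PETs and 181 and 173 ARID1A PETs. Folds over the 8 ranged from 10.4 to 20.7. All 8 were called 3.15 to 8.23 times wider for ARID1A, and all 8 stayed higher per called base, with log2 folds from 0.95 to 1.85.

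At the 8 members most in the other direction, ARID1A was 3.58 to 9.65 times lower. At 16p13.13 (chromosome 16, 11069136 to 11090710) the loops held 345 and 393 H3K27ac PETs and 9 and 19 ARID1A PETs, a log2 fold of -3.02 ± 0.20 (adjusted p = 5.50e-50 by edgeR's test). Called over 21574 bp for H3K27ac and 5022 bp for ARID1A, it had a log2 fold of -0.92 per called base. At 7q22.1 (chromosome 7, 100269516 to 100282126), called over 9209 and 8796 bp, they held 354 and 370 H3K27ac PETs and 20 and 24 ARID1A PETs, and the log2 fold was -2.34 on the main scale and -2.28 per called base. The region at 17p13.1 (chromosome 17, 7305765 to 7311567) held 278 and 295 H3K27ac PETs and 8 and 16 ARID1A PETs, with -2.88 and -3.14 on the same scales. The region at 17q22 (chromosome 17, 55508050 to 55528721) was called over 20671 bp for H3K27ac and 3021 bp for ARID1A, with a log2 fold of -2.79 on the main scale and -0.02 per called base. The other 4 lay at 19p13.3, 19p13.2, 16q24.1 and 17q25.3.

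**Figure D2:**
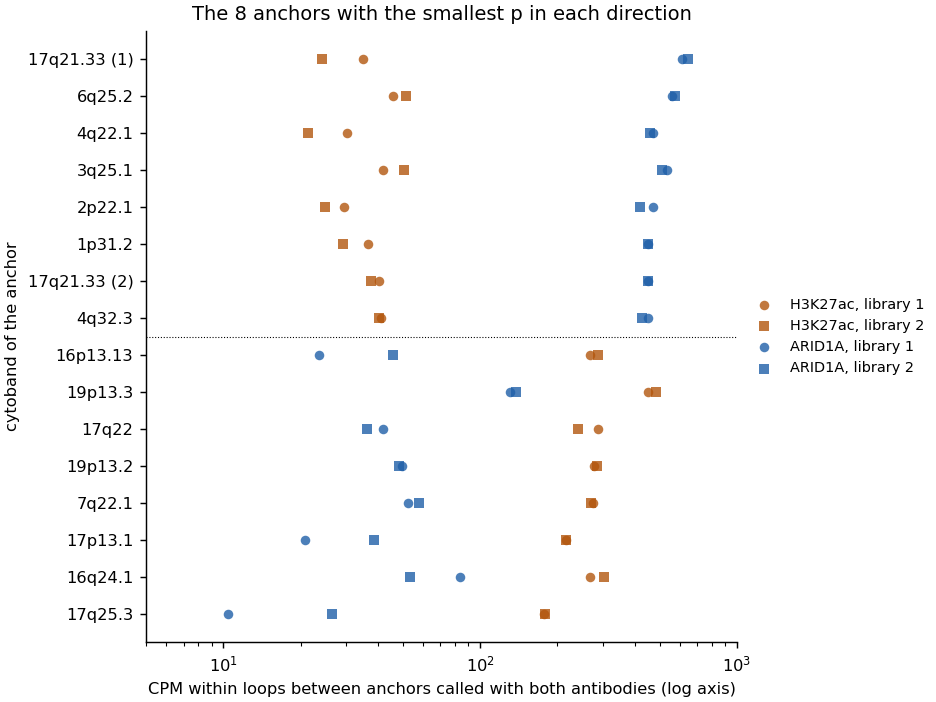
CPM of the 8 members higher for ARID1A (above the dotted line) and the 8 lower for ARID1A (below it) with the smallest p, in each H3K27ac library (orange) and each ARID1A library (blue) at day 3, on a log axis. Circles are library 1 and squares library 2, CPM are within loops between anchors called with both antibodies, and the 2 rows of 17q21.33 are the neighbours that start at 49074824 (1) and 49117371 (2). The colours do not overlap in any row.

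What the members were joined to differed between the antibodies. In the H3K27ac libraries, 69.4% and 69.6% of the PETs of loops with a member at an end ran to a lasting anchor with ARID1A and 7.44% and 7.55% to a lasting anchor without it. Another 15.2% and 15.0% ran to another member and 7.92% and 7.88% to a day-3-only anchor without ARID1A. In the ARID1A libraries, 41.9% and 42.2% ran to lasting anchors, 17.3% and 17.2% to another member, and 39.1% and 38.9% to ARID1A anchors without H3K27ac. Day-0-only H3K27ac anchors that carried ARID1A took 1.68% and 1.69%.

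**Figure D3:**
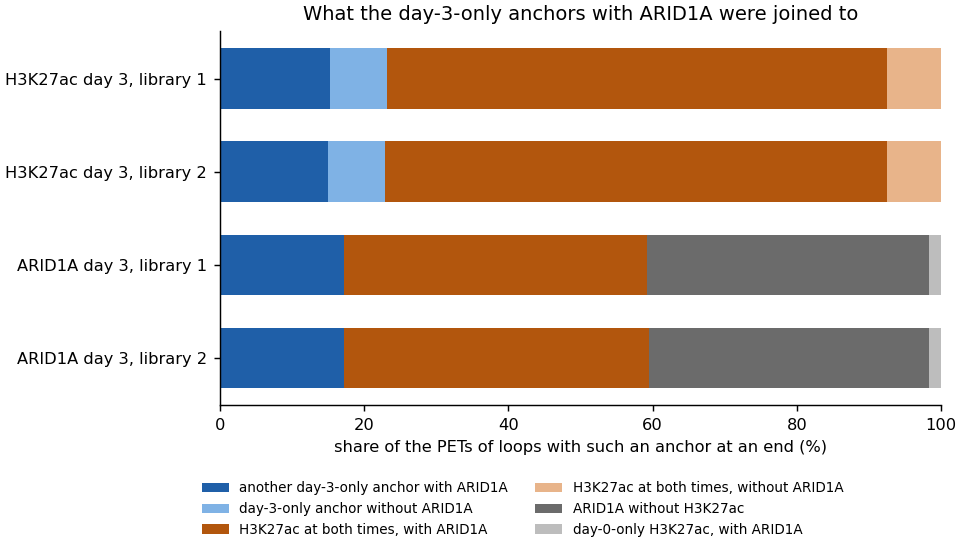
Share of the PETs of loops with a day-3-only anchor with ARID1A at an end, by the class of the region at the other end, for each of the 4 day 3 libraries. Lasting anchors with ARID1A (dark orange) take 69.4% and 69.6% for H3K27ac and 41.9% and 42.2% for ARID1A, where ARID1A anchors without H3K27ac (dark grey) take 39.1% and 38.9%.

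Part of this contrast is set by which regions each antibody lists: an H3K27ac loop cannot end at a region with no H3K27ac anchor. Among partners called with both antibodies, another member took 17.9% ± 0.191 of PETs for H3K27ac and 29.1% ± 0.173 for ARID1A (SD, n = 2), a difference of 11.2 percentage points with no overlap between the libraries. The exact two-sided permutation p was 0.33, the smallest that 2 libraries against 2 allow. With libraries thinned to 253502 PETs, the difference was 10.99 points, and with each loop counted once 5.53 points. Loops with a member held 36.8% and 36.6% of all H3K27ac PETs and 44.5% and 44.4% of all ARID1A PETs.

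The partner also depended on where a member lay. Members within 10 kb of a day 0 anchor sent 78.2% and 78.7% of their H3K27ac PETs, and 52.0% and 52.3% of their ARID1A PETs, to regions with H3K27ac at both times. Members beyond 500 kb sent 20.5% and 18.7% of their H3K27ac PETs and 6.60% and 6.93% of their ARID1A PETs there. Regions with H3K27ac at both times are themselves day 0 anchors, so a member beyond 500 kb reaches one only by a loop over 500 kb. The contrast is thus partly set by grouping the members by this distance. Of the members, 93.4% had a loop to a region with H3K27ac at both times in both H3K27ac libraries, and 73.5% in both ARID1A libraries. In the H3K27ac libraries 289 members had a partner member in both but no such lasting partner, and in the ARID1A libraries 918. An ARID1A loop cannot end at a region without an ARID1A anchor, and the ARID1A libraries held fewer PETs. These shares and counts are therefore not on equal terms between the antibodies.

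Member contacts were shorter for ARID1A than for H3K27ac. The PET-weighted median span of loops with a member was 125 ± 2.30 kb for H3K27ac and 87.7 ± 0.955 kb for ARID1A (SD, n = 2), a difference of -37.6 kb (exact two-sided permutation p = 0.33, the smallest possible). Between regions called with both antibodies it was 126 ± 2.02 and 93.4 ± 1.42 kb, a difference of -32.4 kb. Contacts over 100 kb made up 55.5% ± 0.325 of H3K27ac PETs and 46.5% ± 0.197 of ARID1A PETs. The lasting anchors with ARID1A had spans of 118 and 116 kb for H3K27ac and 98.3 and 98.8 kb for ARID1A. The order against the members depended on the measure. With each loop counted once the H3K27ac medians were 398 and 396 kb at the members and 481 and 478 kb at the lasting anchors. Between regions called with both antibodies the ARID1A spans were 92.4 and 94.4 kb at the members and 94.0 and 94.7 kb at the lasting anchors. Day-3-only anchors without ARID1A had H3K27ac spans of 101 and 98.9 kb.

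**Figure D4:**
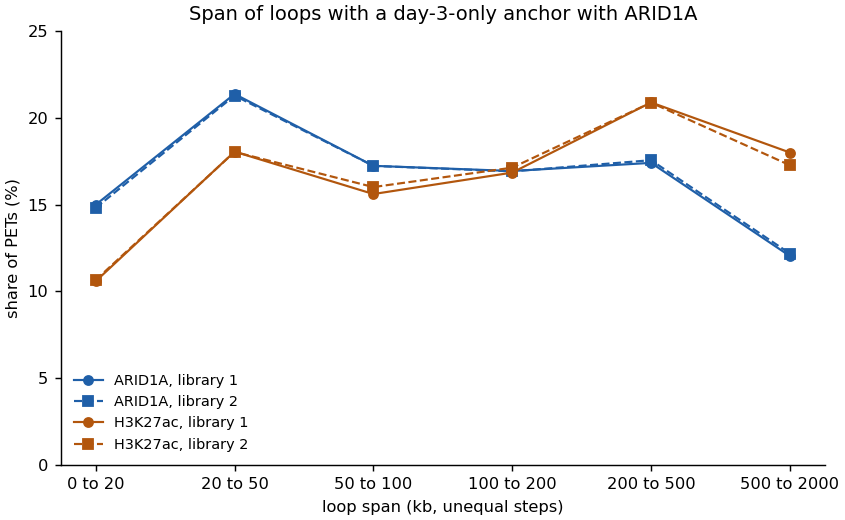
Share of the PETs of loops with a day-3-only anchor with ARID1A (vertical axis, %) by loop span in kb (horizontal axis, unequal steps), for each H3K27ac library (orange) and ARID1A library (blue) at day 3. Circles with solid lines are library 1, squares with dashed lines library 2. Under 20 kb lie 10.6% and 10.7% of H3K27ac and 15.0% and 14.8% of ARID1A PETs, and beyond 500 kb 18.0% and 17.3% against 12.0% and 12.2%.

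In the plot of spans the 2 libraries of each antibody run nearly on top of each other, and the antibodies cross between 100 and 200 kb, where H3K27ac holds 16.8% and 17.1% of its PETs and ARID1A 16.9% and 16.9%. Each member had 14.6 ± 0.0526 partners for H3K27ac and 12.3 ± 0.328 for ARID1A. With libraries thinned to 253502 PETs the order turned, with 7.25 and 7.10 partners for H3K27ac and 8.82 and 8.79 for ARID1A. The members' own depth still differed there, at 15.5 and 15.3 H3K27ac PETs each against 19.6 and 19.5 ARID1A PETs.

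Loop by loop, 15708 consensus loops with a member at an end passed the filter of 4 PETs in 2 libraries. ARID1A was higher at 3293 of them (21.0%) and lower at 1781 (11.3%) by edgeR's quasi-likelihood test at an adjusted p under 0.05, beside 14.5% higher and 18.8% lower over all 28338 loops tested (33.3% in either direction). The filter passed 6745 of these loops through their H3K27ac PETs alone, of which 1394 were lower, and 709 through their ARID1A PETs alone, all 709 of them higher. The counts therefore describe tested loops only. Of the 8254 that reached 4 PETs with both antibodies 2584 (31.3%) were higher and 387 (4.69%) lower. The same shares over all loops that reached 4 PETs with both antibodies were not computed. This split is therefore no result about the members. Of 3334 loops between 2 members 1281 were higher and 151 lower, with a median log2 fold of 1.00. Of these 416 passed through ARID1A PETs alone and 971 through H3K27ac PETs alone. Of 12374 loops from a member to a lasting anchor 2012 were higher and 1630 lower, with a median of -0.23, and there 293 and 5774 passed in the same ways. Scaled by library totals, 2186 loops with a member (13.9%) were higher and 3955 (25.2%) lower, beside 9.11% and 37.0% of all loops (46.1% in either direction). Under that scaling the loops between 2 members kept a median above 0, at 0.39, with 981 higher and 398 lower, while the loops to lasting anchors had a median of -0.84, with 1205 higher and 3557 lower.

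The strongest member-to-member loops were ranked by the CPM of each antibody in turn, so their folds are descriptions. For H3K27ac, the second strongest joined 16p13.13 at 11069136 to 11090710 with 11162042 to 11184564, over 93.4 kb. It held 79 and 90 H3K27ac PETs and 3 and 3 ARID1A PETs (log2 fold -3.14 ± 0.41). With fewer than 4 ARID1A PETs in each library, it passed the filter through its H3K27ac PETs alone. At 3p14.3 the loop from 56851014 to 56867751 into the member at 56868578 stood in both lists, with 92 and 75 H3K27ac PETs and 76 and 89 ARID1A PETs (log2 fold 1.63 ± 0.17). For ARID1A, a loop at 1q32.3 (chromosome 1, 211738930 to 211779961 with 211807732 to 211829882) held 68 and 74 ARID1A PETs and 60 and 54 H3K27ac PETs. One at 22q13.1 (chromosome 22, 40981139 to 41009864 with 41014743 to 41035329) held 67 and 64 ARID1A PETs and 26 and 28 H3K27ac PETs. Most of these strong loops join close neighbours: 11 of the 12 entries span 15.9 to 59.4 kb.

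Listing was compared over the 90075 member loops between regions called with both antibodies, which leaves out loops to regions called with one. Of the 43188 listed in both H3K27ac libraries 39.3% were listed in both ARID1A libraries, and of the 21476 listed in both ARID1A libraries 79.0% were listed in both H3K27ac libraries. Of 10737 with 5 or more PETs in both H3K27ac libraries 93.3% were listed in at least 1 ARID1A library, and of 4336 with 5 or more PETs in both ARID1A libraries 99.1% were listed in at least 1 H3K27ac library. The H3K27ac libraries held 929128 and 982141 PETs and the ARID1A libraries 435210 and 467487. What part this unequal depth had in the shares listed was not tested. The preferred partner differed more than replicates did. Where a member had a partner with 5 PETs or more, that top partner was the same in 73.1% of 4689 members between the H3K27ac libraries and 72.9% of 2909 between the ARID1A libraries, but in 53.2% to 54.7% between antibodies. It was another member in 25.7% and 25.2% of cases for H3K27ac and in 45.7% and 45.5% for ARID1A.

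Some members were hubs, regions with many partners. The 5 with the most H3K27ac partners, ranked by the lower of the 2 libraries, lay at 1p36.11 (25861835 to 25903609, and 26850134 to 26859972), 1q22, 22q13.1 and 1p36.22. The first had 56 and 58 H3K27ac partners and 52 and 50 ARID1A partners. The region at 1q22 (chromosome 1, 155104212 to 155114183) had 52 and 60 H3K27ac partners but 21 and 12 ARID1A partners, with 295 and 308 H3K27ac PETs and 28 and 21 ARID1A PETs. At 22q13.1 (chromosome 22, 40891713 to 40916948) there were 57 and 51 H3K27ac and 39 and 40 ARID1A partners. Among these 5 hubs, ARID1A was close to H3K27ac in partner number at some and far below it at others. The hubs were picked for their H3K27ac partners and counted at full depth, so fewer ARID1A partners follow in part from that choice. The median member had 13 and 13 H3K27ac partners and 11 and 11 ARID1A partners.

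Members have no day 0 value, so the H3K27ac change around them was measured at their partners, the lasting anchors with ARID1A, counting only loops between regions with H3K27ac at both times so that no member PET enters. The 1038 lasting anchors joined to no member in both ARID1A libraries had a median log2 fold of -0.13 from day 0 to day 3, with 11.7% higher and 18.9% lower. Over all 6251 regions tested, 20.7% were higher, 18.8% lower and 39.5% either (edgeR's quasi-likelihood test, adjusted p under 0.05). The median was -0.07 over 2028 lasting anchors joined to 1 or 2 members, 0.12 over 1506 joined to 3 to 5, 0.26 over 667 joined to 6 to 10 and 0.27 over 74 joined to 11 or more. The share called higher was 16.7%, 28.2%, 41.5% and 51.4% in the same order, while the share called lower was 20.2%, 16.3%, 16.6% and 14.9%. Scaled by library totals, which moves the median of all regions by -0.62, every group had a median below 0, at -0.69, -0.50, -0.36 and -0.35 against -0.75 with no member. Under that scaling 4.88%, 8.43%, 15.1% and 17.6% were higher and 58.5%, 51.5%, 49.0% and 56.8% lower, against 3.47% and 55.6% with no member, beside 6.29% higher, 55.0% lower and 61.3% either over all regions.

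**Figure D5:**
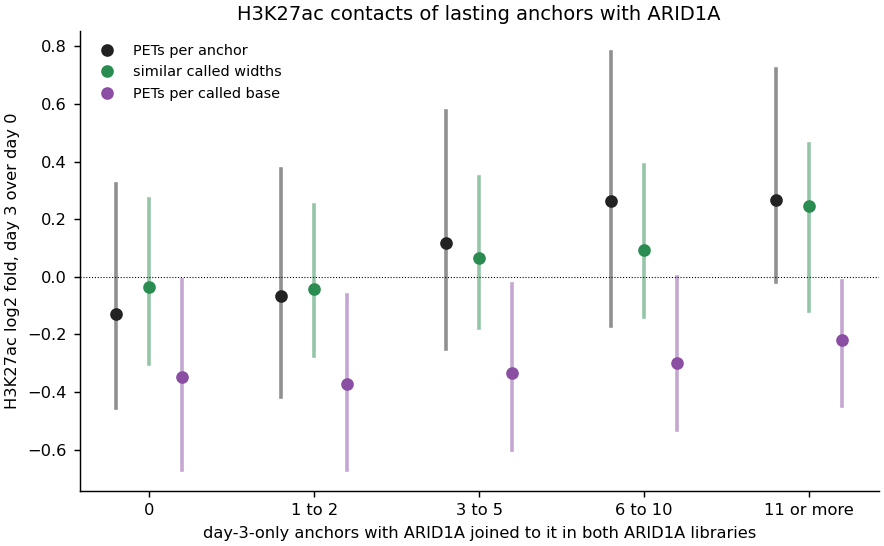
Log2 fold of H3K27ac PETs from day 0 to day 3 (vertical axis) at lasting anchors with ARID1A, by the number of day-3-only anchors with ARID1A joined to them in both ARID1A libraries (horizontal axis). Points are medians and bars run from the 25th to the 75th percentile, for PETs per anchor (black), anchors of similar called width at both times (green) and PETs per called base (purple). Black medians go from -0.13 to 0.27 and purple medians from -0.35 to -0.22.

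The called width of these lasting anchors moved with the number of members they met. Its median ratio of day 3 over day 0 was 1.19 at those joined to none, 1.23, 1.36 and 1.44 in the next groups and 1.41 in the last. Their PETs went up over these groups at both times. The medians rose from 23 and 20 to 180 and 147 at day 0, and from 62 and 66 to 572 and 590.5 at day 3. Per called base the medians were -0.35, -0.37, -0.33, -0.30 and -0.22. Among anchors of similar width they were -0.04, -0.04, 0.07, 0.09 and 0.25, the last over 24 anchors. There 5.35%, 7.60%, 14.3%, 22.8% and 45.8% were higher, and 7.13%, 9.53%, 9.41%, 10.3% and 12.5% lower. Over all 2524 regions of similar width 9.98% were higher, 9.15% lower and 19.1% either. Per called base, 3.06% of the lasting anchors joined to any member were higher and 37.8% lower. Of those joined to none 2.31% were higher and 29.4% lower. Comparing lasting anchors joined to any member with those joined to none, the difference of median log2 folds was 0.18 per anchor, 0.060 at similar widths and 0.0049 per called base. On log2(CPM + 10) values it was 0.11 to 0.17 in the 4 pairs of one day 0 with one day 3 library. The part of width and level in these differences was not tested further.

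Loops between 2 regions with H3K27ac at both times were also set against the number of day-3-only anchors with ARID1A lying between their ends. Among loops spanning 200 to 500 kb, the median log2 fold of H3K27ac from day 0 to day 3 was 0.01 over 764 loops with no member between the ends, 0.07 over 1150 with 1 and 0.17 over 2994 with 2 or more. Among loops of 100 to 200 kb it was -0.03 over 1477 loops, 0.07 over 1154 and 0.13 over 801, and among loops of 60 to 100 kb -0.15 over 1190, 0.02 over 523 and 0.06 over 137. Calls were few: of the 2994 loops 6.75% were higher and 2.71% lower, and of the 764 with no member 5.24% and 4.97%. Over all 16642 loops of any span tested with edgeR's quasi-likelihood test, 8.35% were higher, 6.70% lower and 15.0% either. Whether span differed between the groups within a step was not tested. Loops share anchors, so these medians carry no test.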

How the data were processed

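The members and the lists used here were chosen with earlier results of these data known. Reads were paired and 150 bp long, per the labels' protocols. HiC-Pro, Bowtie2 and hg19 stand in the submitters' processing notes without versions, and neither the anchor nor the loop caller is named there. The deposited files give, for each pair of anchors, a raw count of PETs that was not normalized and a value from 0 to 1. The deposited files do not say if that value is a p-value or, instead, a q-value. It served only as a threshold of 0.01 in alternatives. Coordinates are printed as deposited, and whether they start from 0 or 1 is not stated.

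Anchors overlapping by 1 bp were merged and PETs summed per pair of merged regions (Python 3.11.15, pandas 2.3.3, numpy 2.4.6), leaving out loops inside a merged region. Band names came from the hg19 table in circlize 0.4.16. PETs were tested with edgeR 4.0.16 in R 4.3.3 (estimateDisp, glmQLFit in its legacy form, glmQLFTest, TMM within the tested set) over all anchors or loops called in both groups compared, with at least 10 PETs per anchor or 4 per loop in 2 libraries. The fits were tested on simulated counts. Values per library were compared by exact two-sided permutation. Named regions were the 10 members with the highest mean CPM per antibody, the 8 with the smallest p per direction among those whose libraries did not overlap, the 6 strongest loops between 2 members per antibody, the 5 members with most H3K27ac partners, the 10 bands and 4 chromosomes with most members, the longest runs, the widest member and those at the edge of the rule. Same-numbered replicates were not paired: the correlation of their differences was -0.0038 between antibodies and -0.016 between days. DESeq2 1.42.0 was an alternative. Sequences, motifs and genes were not analysed, since no genome of that build was used here.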

Additional observations from a re-analysis of the deposited data

How the results depend on the processing

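The number of members was 6335 with anchors closer than 1000 bp merged, 4535 with loops at a deposited value of 0.01 or less, 6321 with 50% overlap of the 2 calls, and 6445 to 6583 without 1 library. Calls at the members moved with scaling, width and depth. Against 2369 higher and 1020 lower, there were 1356 and 2004 by library totals, 1952 and 614 with DESeq2, 1424 and 514 of 3482 with libraries thinned to 253502 PETs, 652 and 278 of 1938 at similar widths, and 1469 higher per called base, an alternative chosen after seeing the data. Without 1 library the higher calls were 1747 to 2005 and the lower 631 to 744, with 631 and 642 when either H3K27ac library was left out. Against 3293 higher and 1781 lower loops with a member, there were 2186 and 3955 by totals, 1856 and 318 with DESeq2, 837 and 202 thinned, 202 and 54 at similar widths, 2739 and 996 with the newer edgeR method, and 1501 to 1779 and 454 to 586 without any 1 of the 4 libraries. As shares of tested loops with a member, 11.8% were higher and 2.02% lower with DESeq2, and 15.9% and 3.85% thinned. They were 7.81% and 2.09% at similar widths, and 17.4% and 6.34% with the newer edgeR method. Over all loops tested, the shares were 8.01% and 4.98% with DESeq2, and 9.88% and 7.87% thinned. They were 6.07% and 5.81% at similar widths, and 11.9% and 11.8% with the newer method. With no filter edgeR called 0 higher and 0 lower of 90075 loops, with 9059 at an unadjusted p under 0.05. The cause of these moves was not tested beyond the fewer regions or libraries tested. With replicate number as a block, 2635 loops were higher and 980 lower, 2348 members were higher and 1000 lower, and no other result changed direction or side; the pairing it assumes was not seen in the data. With that block, 31.2% of all anchors tested were higher and 32.1% lower, and 11.6% and 11.8% of all loops. The span difference was -84.1 kb at the deposited value of 0.01 or less and -169.8 kb with each loop counted once at full depth. That last measure moved with depth. With libraries thinned to 253502 PETs, the medians with each loop counted once were 269 and 263 kb for H3K27ac and 188 and 190 kb for ARID1A. The difference of medians at lasting anchors, 0.18, was 0.060 at similar widths, 0.0049 per called base and 0.14 to 0.21 without 1 library. Of 178 repeats over 16 named members 177 kept direction and side; 17q22 per called base did not, at -0.02. The motif alternative was not run.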

Other observations

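The band where members took the largest share of day 3 H3K27ac anchors, among bands with at least 25 members, was 4q31.3, chosen after its values were seen. There, members made up 28 of 37 such anchors (75.7%) and held 61.8% and 61.9% of the H3K27ac PETs at anchors of that band, and 47.1% and 47.4% of the ARID1A PETs.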
